A study of Caenorhabditis elegans with 6 samples.

Results

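The insulin-like peptide genes of Caenorhabditis elegans were taken as every probe set with exactly 1 platform symbol of the form ins followed by a number, or daf-28. This gave 40 genes with 1 probe set each, out of 25478 genes with a probe set of their own, and all 40 were found in the RefSeq gene table of assembly WBcel235. RefSeq lists 39 of them as protein-coding and 1, ins-38, as a pseudogene. Of the 40, 10 lie on chromosome I, 16 on II, 5 on III, 4 on IV, 3 on V and 2 on X.

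Whole larvae of the wild-type strain N2, staged L4 hermaphrodites, were profiled on 6 Affymetrix arrays. In the perchlorate group (n = 3 arrays) 1 mg/mL sodium perchlorate was present in agar and in the Escherichia coli OP50 food for 48 hours at 20 °C from L1. The control group (n = 3 arrays) was raised for 48 hours on plain nematode growth medium with the same bacterial strain, going by its titles and treatment entries, although its growth and treatment notes repeat the perchlorate exposure. Both groups carried the wild-type genotype, and the labels name no separate cultures behind the replicates. A p-value here therefore reflects only array-to-array spread, which may be technical.

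Insulin-like peptides are small secreted hormones, made mostly by neurons and also by intestine and hypodermis, that bind the receptor DAF-2. Agonists activate DAF-2 and, through a phosphoinositide kinase cascade, keep the FOXO transcription factor DAF-16 out of the nucleus, which favours growth and reproduction. Antagonists act against the receptor, and low DAF-2 activity favours entry into the dauer larva, a resting stage, and stress resistance. The worm family is unusually large, and many of its members lie beside each other in the genome.

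All values are log2 probe set values as deposited, so a difference of 1 is a 2-fold difference. Array medians over the 26192 probe sets tested lay between 5.81 and 5.89 in the perchlorate group and between 5.83 and 5.87 in the control group. Perchlorate replicate 1 stood apart on the first principal component, with a score of 47.7, while perchlorate replicates 2 and 3 scored 12.2 and 13.1 and the control scores ran between -27.2 and -20. The counts of members and the medians of the gene lists are therefore also given without it.

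No insulin-like peptide gene passed the test across all probe sets. In limma, with Benjamini-Hochberg adjustment over 26192 probe sets, 0 of 40 were below an adjusted p of 0.05, where 0.00764% of all probe sets were, and the smallest adjusted p was 0.122, for ins-12. At an unadjusted p under 0.05 there were 13 of 40 (32.5%), 10 of them higher and 3 lower with perchlorate, where 16.4% of all probe sets reached that level, 8.46% higher and 7.92% lower. Groups were fully apart, with all 3 perchlorate values on one side of all 3 control values, for 12 of 40 (30%), 8 higher and 4 lower, beside 24% of all probe sets, 12.8% higher and 11.2% lower.

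The count of 13 depended on single arrays. Without perchlorate replicate 1 it was 6 of 40 (15%), close to the 14.3% of all probe sets in the same fit. Leaving out control replicate 1, 2 or 3 gave 8 of 40 (20%) each time, beside 10.7%, 11.1% and 14.9% of all probe sets. Leaving out perchlorate replicate 2 or 3 gave 10 of 40 (25%), beside 17.5% and 16.4% of all probe sets. No further member had groups apart without perchlorate replicate 1, so the count of such genes was again 12 of 40, beside 33.2% of all probe sets; genes apart with all arrays are apart by construction when 1 is removed. The family as a whole had no common direction, with 20 of 40 members (50%) above 0, beside 55.2% of all probe sets, 20 below 0 and a median log2 difference of -0.02, against 0.03 over all probe sets. The median was -0.06, with 16 members above 0, when perchlorate replicate 1 was left out, and 0.13, with 24 above 0, when perchlorate replicate 2 was left out.

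**Figure D1:**
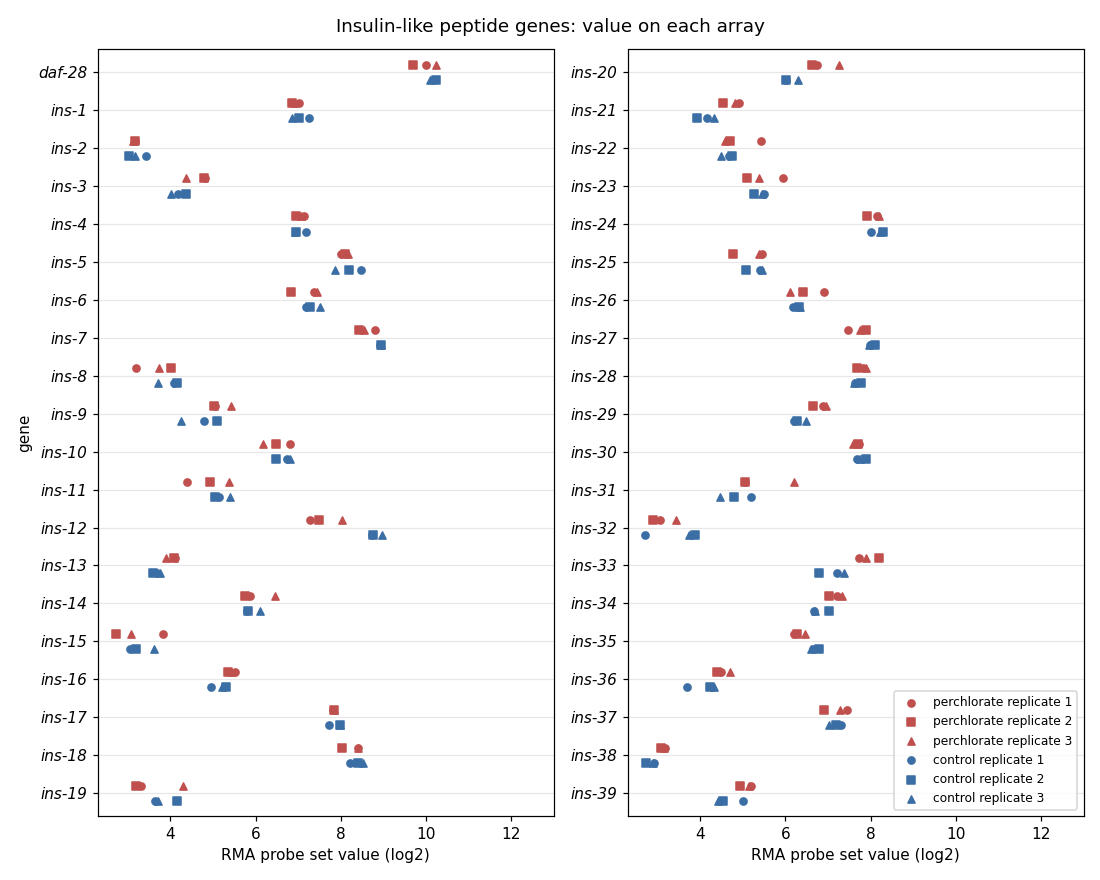
Log2 probe set value (x axis) of each of the 40 insulin-like peptide genes (rows) on 3 perchlorate arrays (red) and 3 control arrays (blue), with 1 symbol shape per replicate number. The groups of most members overlap, while the 3 perchlorate values of ins-12 (7.27, 7.49 and 8.02) lie left of its 3 control values (8.74, 8.77 and 8.98).

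The members differed in how bright their probe sets were. Set among the means of all probe sets tested, 7 members lay below the 25th percentile, 11 between the 25th and 50th, 16 between the 50th and 75th and 6 above the 75th. The brightest was daf-28, at the 93.3rd percentile, and the dimmest was the pseudogene ins-38, at the 5.99th. These places describe hybridisation signal and not amounts of transcript, because probes differ in brightness between genes. Standard errors of the log2 differences ran between 0.110 and 0.344 over the 40 members, and their median, 0.17, was above the 0.153 of all probe sets. The SD was larger among perchlorate arrays than among control arrays for 24 of 40. Perchlorate replicate 2 was the lowest array of its group for 24 of 40 members, against 9 for replicate 1 and 7 for replicate 3.

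**Figure D2:**
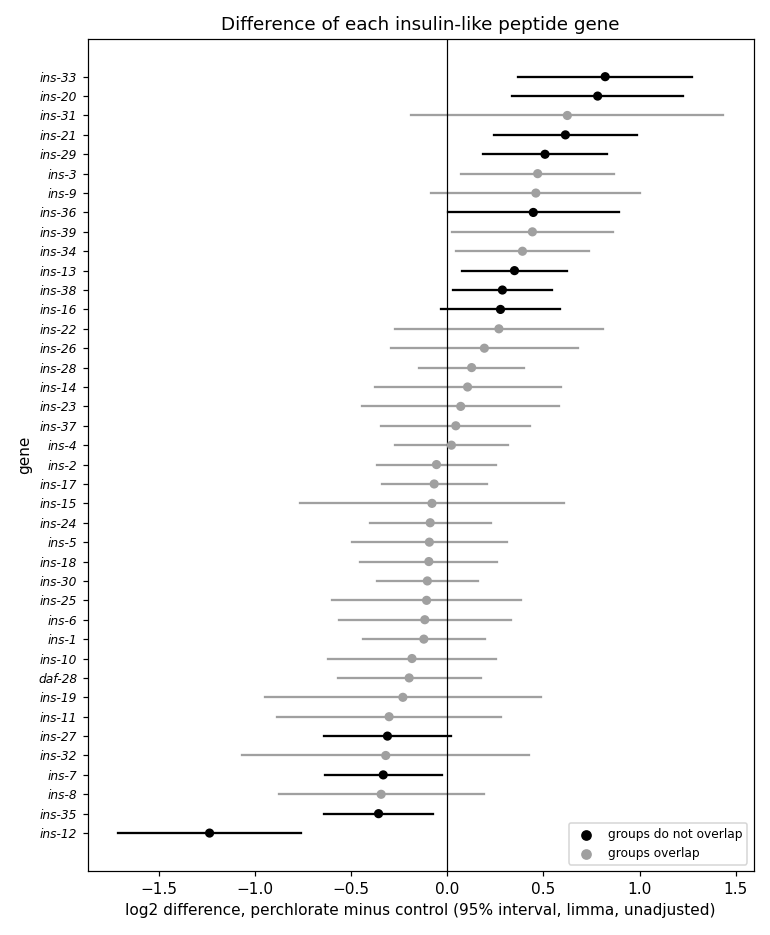
Log2 difference, perchlorate minus control (x axis), with its unadjusted 95% limma interval for each of the 40 members, ordered by size, in black where the 3 perchlorate and 3 control values do not overlap and in grey where they do. The difference of ins-12 (-1.24) stands below all others, and ins-33 (0.82) and ins-20 (0.78) are at the upper end.

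The gene with the largest difference was ins-12, lower with perchlorate. Its values were 7.27, 7.49 and 8.02 on the perchlorate arrays, against 8.74, 8.77 and 8.98 on the control arrays. The groups did not overlap, and the highest perchlorate value lay below the lowest control value by more than the whole control range. On the log2 scale the groups differed by -1.24 (SE 0.202, limma adjusted p = 0.122), or 0.425 of the control level, and ins-12 ranked 94 of 26192 by p. It was the 1 member of 40 (2.5%) that differed at least 2-fold, as did 1.2% of all probe sets. The difference was -1.07 when perchlorate replicate 1 was left out. Over all alternatives the limma adjusted p of ins-12 lay between 0.0277 and 0.417: it passed with a trended and robust prior (0.0277) and when probe sets below the median brightness were left out (0.0471), and not under the others.

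Of the 2 members beside ins-12, ins-13 had the opposite sign and ins-11 the same sign with overlapping groups. With perchlorate its neighbour ins-13 was at 4.10, 4.08 and 3.90, against 3.68, 3.59 and 3.76 in controls. The groups did not overlap, with perchlorate on the higher side by 0.35 (SE 0.116, limma adjusted p = 0.22). The other neighbour, ins-11, encodes a peptide that the intestine makes more of on pathogenic bacteria and that feeds back on avoidance behaviour. Its values were 4.39, 4.94 and 5.37 on the perchlorate arrays, against 5.14, 5.06 and 5.41 on the control arrays. The ins-11 groups overlapped, and its difference of -0.30 (SE 0.246, limma adjusted p = 0.582) was -0.05 without perchlorate replicate 1.

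Among the agonists, 9 genes were listed from genetic or receptor work: daf-28, ins-3, ins-4, ins-6, ins-7, ins-9, ins-32, ins-33 and ins-35. The evidence for this role is less direct for ins-9, ins-32 and ins-35. None passed in limma after adjustment, and at an unadjusted p under 0.05 ins-33 and ins-3 were higher with perchlorate while ins-35 and ins-7 were lower. These 4 of 9 (44.4%) stood beside 16.4% of all probe sets. The median log2 difference of the 9 was -0.12, against 0.03 over all probe sets, with 4 above 0 and 5 below. Without perchlorate replicate 1 the median was -0.19, and ins-33 and ins-7 remained under an unadjusted p of 0.05, beside 14.3% of all probe sets.

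The gene ins-33 is transcribed in the hypodermis, where the heterochronic factor LIN-14 represses it in early larvae, and the peptide promotes larval germ cell proliferation. It was at 7.74, 8.20 and 7.90 with perchlorate, against 7.21, 6.79 and 7.38 in controls. Every perchlorate array was above every control array, by 0.82 on average (SE 0.192, limma adjusted p = 0.151), or 1.77 times the control level. The difference was 0.93 without perchlorate replicate 1, and between 0.65 and 0.95 on leaving out any 1 array. Of the 9 measured hypodermis markers 8 were below 0, as given with the tissue markers below, and any link to ins-33 was not tested. A second gene tied to larval germ cell proliferation, ins-3, was at 4.82, 4.79 and 4.36 with perchlorate, against 4.17, 4.38 and 4.01 in controls. Here the groups overlapped by a small margin, and the difference was 0.47 (SE 0.168, limma adjusted p = 0.245).

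The gut and neuronal agonist ins-7, whose transcription DAF-16 represses in a feed-forward loop, was at 8.82, 8.44 and 8.55 with perchlorate, against 8.92, 8.94 and 8.95 in controls. The control arrays lay within a narrow range, and all perchlorate arrays were below it. Between groups the log2 values differed by -0.33 (SE 0.129, limma adjusted p = 0.268), or 0.794 of the control level, and it was -0.44 without perchlorate replicate 1. The ins-35 values were 6.21, 6.28 and 6.47 with perchlorate, against 6.65, 6.78 and 6.60 in controls. These groups did not overlap either, and the difference was -0.36 (SE 0.121, limma adjusted p = 0.224), or -0.30 without perchlorate replicate 1.

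The agonists of the ASI and ASJ sensory neurons, which act together against dauer entry or promote exit from it, showed no difference beyond their spread. The daf-28 probe set was at 10.001, 9.69 and 10.24 with perchlorate, against 10.19, 10.23 and 10.11 in controls. One perchlorate array lay above all controls and the others below, and the difference of -0.20 had a 95% interval of -0.57 to 0.17 (limma adjusted p = 0.573). For ins-6 the perchlorate arrays held 7.36, 6.82 and 7.44, against 7.18, 7.28 and 7.51 in controls. The ins-6 groups overlapped, with a difference of -0.12 and an interval of -0.56 to 0.33. The ins-4 values were 7.13, 6.94 and 7.06 with perchlorate, against 7.20, 6.95 and 6.92 in controls. The ins-4 groups lay over each other, with a difference of 0.02 and an interval of -0.27 to 0.31. A 2-fold difference in either direction is outside the intervals of these 3 genes. The remaining listed agonists, ins-9 (difference 0.46, SE 0.231) and ins-32 (-0.32, SE 0.317), had overlapping groups and dim probe sets.

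The antagonist list held ins-1, ins-11, ins-17, ins-18, ins-37 and ins-39, with less direct evidence for ins-37 and ins-39. None of the 6 passed in limma after adjustment and none had groups apart, beside 24% of all probe sets, and the median was -0.08. At an unadjusted p under 0.05 there was 1 (16.7%), higher with perchlorate, close to the 16.4% of all probe sets. With perchlorate replicate 1 left out the median was -0.07 and 0 were under an unadjusted p of 0.05, beside 14.3% of all probe sets. The member that resembles vertebrate insulin most in its layout, ins-1, acts in salt learning and was at 7.02, 6.86 and 6.91 with perchlorate, against 7.26, 7.03 and 6.86 in controls. Its groups overlapped, and the difference of -0.12 had an interval of -0.44 to 0.20. The values of ins-18, a dauer-promoting antagonist, were 8.40, 8.04 and 8.41 with perchlorate, against 8.21, 8.40 and 8.52 in controls. The ins-18 groups overlapped too, with a difference of -0.10 and an interval of -0.45 to 0.26.

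The dauer-promoting gene ins-17 differed by -0.07 (interval -0.34 to 0.20). For ins-37 the perchlorate arrays held 7.45, 6.92 and 7.28, against 7.30, 7.18 and 7.03 in controls, a difference of 0.04 that was -0.07 without perchlorate replicate 1. The gene of the antagonist list under an unadjusted p of 0.05 was ins-39, at 5.20, 4.92 and 5.15 with perchlorate, against 4.998, 4.53 and 4.42 in controls. Control replicate 1 of ins-39 lay above the lowest perchlorate array, and the difference was 0.44 (SE 0.177, limma adjusted p = 0.281).

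**Figure D3:**
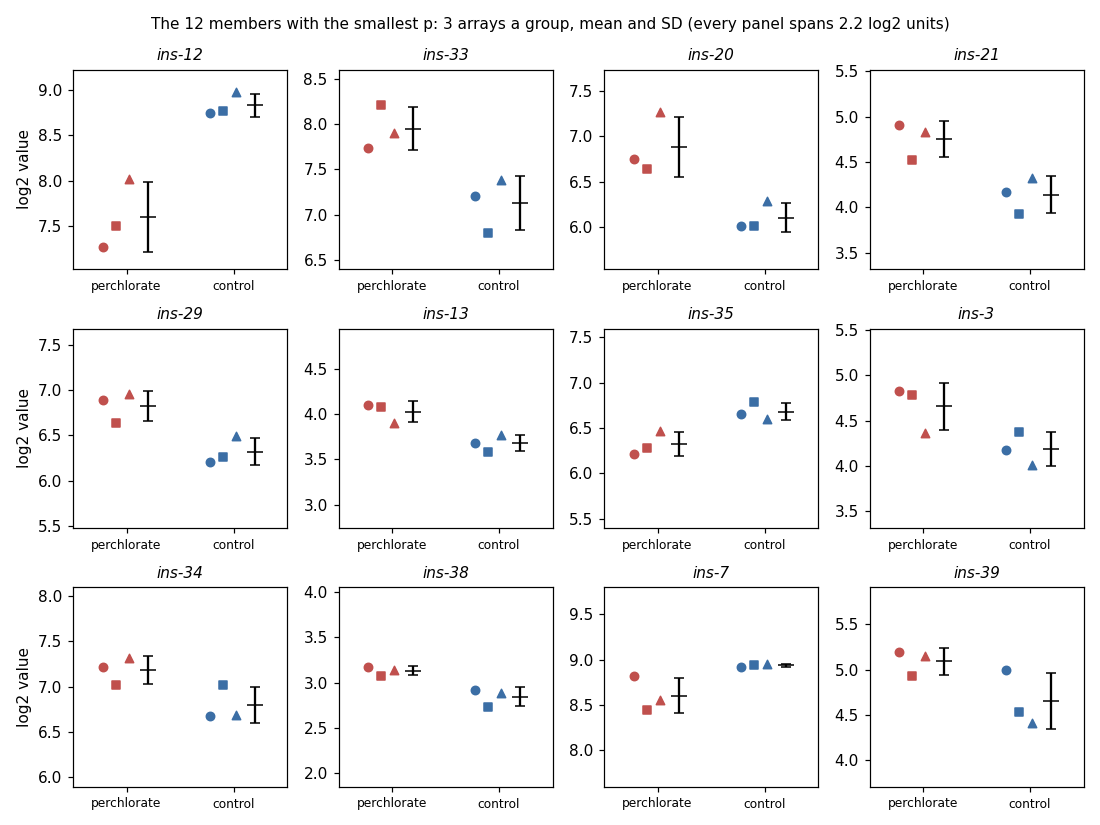
Log2 value (y axis, each panel spanning 2.2 units) on 3 perchlorate arrays (red) and 3 control arrays (blue) for the 12 members with the smallest limma p, with the mean and SD of each group in black beside the points. In 9 of the 12 panels the groups do not overlap, beside 24% of all probe sets. They overlap in the panels of ins-3, ins-34 and ins-39. Choosing panels by small p favours groups that do not overlap.

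Several members that stand in neither list were among the 12 with the smallest p. With perchlorate ins-20 was at 6.75, 6.64 and 7.27, against 6.01, 6.01 and 6.29 in controls. All perchlorate values were above all control values, and the log2 difference of 0.78 (SE 0.189, limma adjusted p = 0.152) is 1.72 times the control level. It was 0.85 without perchlorate replicate 1. The ins-21 probe set was at 4.91, 4.53 and 4.83 with perchlorate, against 4.17, 3.93 and 4.33 in controls. These groups were apart as well, by 0.61 on average (SE 0.158, limma adjusted p = 0.161), and by 0.54 without perchlorate replicate 1. For ins-29 the perchlorate arrays held 6.90, 6.64 and 6.95, against 6.21, 6.27 and 6.49 in controls. The difference of 0.51 (SE 0.138, limma adjusted p = 0.17) came with groups that did not overlap.

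The ins-34 values were 7.22, 7.02 and 7.32 with perchlorate, against 6.67, 7.02 and 6.69 in controls. Control replicate 2 of ins-34 reached the lowest perchlorate value, and the difference was 0.39 (SE 0.146, limma adjusted p = 0.257). The pseudogene ins-38 was at 3.18, 3.08 and 3.15 with perchlorate, against 2.92, 2.73 and 2.89 in controls. Its groups did not overlap, but its difference of 0.29 (SE 0.110, limma adjusted p = 0.266) lies near the bottom of the array range.

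The other 21 members had log2 differences between -0.34 and 0.62, with 9 above 0 and 12 below, and limma adjusted p between 0.303 and 0.914. Of these, 3 had groups that did not overlap, beside 24% of all probe sets. These 3 were ins-36, higher by 0.45, ins-16, higher by 0.28, and ins-27, lower by 0.31, named after their values were seen. Only ins-36 was under an unadjusted limma p of 0.05, beside 16.4% of all probe sets. The 12 members with the smallest p are not among the 21, which lowers both counts. The ins-31 difference of 0.62 (SE 0.344) rested on perchlorate replicate 3, at 6.21, where perchlorate replicates 1 and 2 were both at 5.06 and the controls at 5.20, 4.79 and 4.46. Over all 40 members, the 95% interval excluded a 2-fold difference in either direction for 34 and lay within 0.5 of 0 for 10.

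The counts by direction were also split by brightness, as a description. Of 22 members at or above the median brightness of all probe sets, 7 (31.8%) had an unadjusted limma p under 0.05, 4 higher and 3 lower, with a median of -0.09. Over all 13096 brighter probe sets the share was 21.7%, with 1328 higher, 1511 lower and a median of 0.01. Of 18 dimmer members, 6 (33.3%) were at that level, 6 higher and 0 lower, with a median of 0.27. Over all 13096 dimmer probe sets the share was 11.1%, with 889 higher, 563 lower and a median of 0.05. When perchlorate replicate 1 was left out, 3 brighter members were higher and 2 lower at an unadjusted limma p under 0.05, with a median of -0.10. At that level 1 dimmer member was higher and 0 lower, with a median of 0.12. Over all probe sets, bright and dim together, 14.3% were at that level in this fit. None of the 19 insulin-like peptide genes with values on every array given here changed sign when arrays were centred on their medians or quantile-normalised again. The deposited values were already quantile-normalised, so these repeats could move the differences little.

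Members that neighbour each other were compared next, since 25 of the 40 lie in 7 clusters with at most 5 other protein-coding genes between members. The chromosome I cluster, in the order ins-28, ins-29, ins-25, ins-27, ins-24, ins-30 and ins-26, had differences between -0.31 and 0.51, 3 above 0 and 4 below. In it ins-29 was under an unadjusted limma p of 0.05. The chromosome II cluster of ins-2, ins-3, ins-4, ins-5, ins-6 and ins-20 had differences between -0.12 and 0.78, 3 on each side of 0, with ins-3 and ins-20 under that level. The cluster of ins-13, ins-12 and ins-11 held the lowest difference of the family beside one above 0.

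Signs were shared in 2 of the 7 clusters. In ins-21, ins-22 and ins-23 on chromosome III all 3 were above 0, at 0.61, 0.27 and 0.07, and in ins-8 and ins-7 on chromosome IV both were below 0, at -0.34 and -0.33. Without perchlorate replicate 1 the ins-22 and ins-23 differences were 0.01 and -0.17, and that of ins-8 was -0.12. Whether probe sets of closely related members share signal was not tested.

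**Figure D4:**
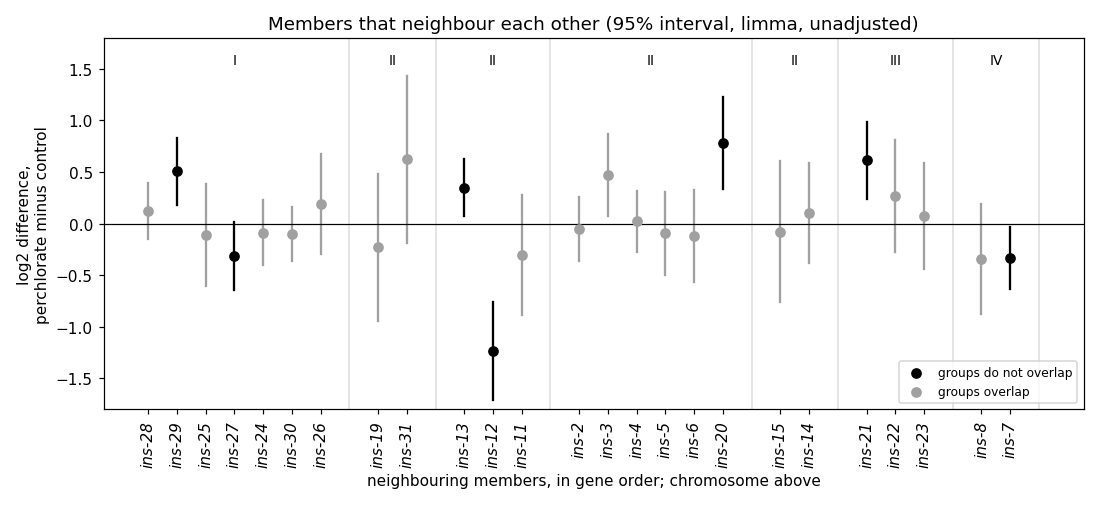
Log2 difference, perchlorate minus control (y axis), with its unadjusted 95% limma interval for the 25 members in 7 neighbour clusters, in gene order with the chromosome above, in black where groups do not overlap. Most clusters hold members on both sides of 0, as with ins-13 (0.35) and ins-12 (-1.24).

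The receptor and its cascade had differences at or below 0 for most genes, with 9 of 13 below 0. Of the 13, 0 passed in limma after adjustment, and the median was -0.16. At an unadjusted p under 0.05, 4 (30.8%) were lower and 0 higher, beside 16.4% of all probe sets, 7.92% lower and 8.46% higher. The receptor gene daf-2 was at 8.69, 8.41 and 8.27 with perchlorate, against 8.97, 8.83 and 8.73 in controls. All perchlorate values of daf-2 were below all control values, by 0.39 (SE 0.144, limma adjusted p = 0.257). The FOXO gene daf-16 was at 9.48, 9.53 and 9.51, against 9.86, 9.85 and 9.67 in controls, a difference of -0.29 (SE 0.109, limma adjusted p = 0.263) with groups apart. The other genes at that level were ist-1, an insulin receptor substrate homologue, at -0.40, and ftt-2, a 14-3-3 protein that binds DAF-16, at -0.33. With perchlorate replicate 1 left out, 12 of the 13 were below 0, with a median of -0.19. At an unadjusted p under 0.05, 2 were then lower, where 14.3% of all probe sets were lower or higher.

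Genes that act on the maturation of insulin-like and other peptides, or on their release from dense-core vesicles in either direction, lay on the lower side. Of 16 listed, 15 were measured and 14 were below 0, with a median of -0.21 against 0.03 over all probe sets. None passed in limma after adjustment. At an unadjusted p under 0.05, 3 (20%) were lower and 0 higher, beside 16.4% of all probe sets, 7.92% lower and 8.46% higher. The proprotein convertase gene egl-3 was at 8.87, 9.08 and 8.93 with perchlorate, against 9.50, 9.41 and 9.40 in controls, a difference of -0.47 (SE 0.111, limma adjusted p = 0.151) with groups apart. The difference was -0.41 (SE 0.123) in cab-1 and -0.34 (SE 0.115) in ida-1, which encodes a dense-core vesicle protein. When perchlorate replicate 1 was left out, the median of the 15 was -0.20. At an unadjusted p under 0.05, 2 were then lower, where 14.3% of all probe sets were lower or higher.

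Transcripts known to follow DAF-16 activity held genes on both sides of 0. Of 16 listed as higher when DAF-16 is active, 8 were above 0 and 8 below, with a median of -0.04, and 0 passed in limma after adjustment. At an unadjusted p under 0.05, 2 were higher and 4 lower (37.5% in all), beside 16.4% of all probe sets. With perchlorate replicate 1 left out 4 were above 0 and 12 below, with a median of -0.08. Again 2 were higher and 4 lower at that level, beside 14.3% of all probe sets. The lysozyme gene lys-7 was at 9.83, 9.83 and 9.85 with perchlorate, against 10.46, 10.36 and 10.42 in controls, and differed by -0.57 (SE 0.101, limma adjusted p = 0.134). The small heat shock gene hsp-12.6 was at 6.37, 5.85 and 6.29, against 5.43, 5.33 and 5.50, and differed the other way, by 0.75 (SE 0.160, limma adjusted p = 0.146). Both had groups that did not overlap. Of 12 listed as lower when DAF-16 is active, 11 were measured, with a median of -0.01. At an unadjusted p under 0.05, 2 were higher and 3 lower (45.5% in all), beside 16.4% of all probe sets. With perchlorate replicate 1 left out, 2 were higher and 2 lower at that level, beside 14.3% of all probe sets, and the median was 0.02. Among them dod-20 differed by -0.67 (SE 0.211) and dod-17 by 0.44 (SE 0.146), and ins-7 itself is in this list.

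Most markers of the tissues that make insulin-like peptides lay below 0 as well. The arrays hold RNA of whole larvae, so fewer cells of a type, less RNA per cell and a difference in developmental timing cannot be told apart. Of 10 pan-neuronal markers 9 were below 0, with a median of -0.17, and the log2 of their summed linear values was 12.09 to 12.18 with perchlorate, against 12.21 to 12.28 in controls. Of 9 measured hypodermis markers 8 were below 0, with a median of -0.40, and the summed level was 11.87 to 11.94 with perchlorate, against 12.04 to 12.22 in controls. Among them the collagen genes bli-1 and rol-6 differed by -1.35 and -1.04, and elt-3 by -0.09 with overlapping groups. The differences of ins-33 (0.82) and of the adult collagen gene col-19 (0.21, groups apart) were above 0.

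Of 9 measured intestine markers 8 were below 0, with a median of -0.22, and a summed level of 14.24 to 14.32 with perchlorate, against 14.29 to 14.34 in controls. Of 9 body wall muscle markers 8 were below 0, with a median of -0.23, and a summed level of 14.32 to 14.53, against 14.62 to 14.69. The 5 measured yolk genes, which adults switch on, had a median of 0.30, or 0.16 without perchlorate replicate 1. Their summed level was 14.63 on that array and 14.39 on both other perchlorate arrays, against 14.30 to 14.38 in controls. The 8 measured sperm and male markers had a median of -0.01 and a summed level of 12.71 to 12.82, against 12.70 to 12.74. The 9 measured genes listed for dauer had a median of 0.05 and a summed level of 10.30 to 10.49, against 10.34 to 10.56. That list shares ges-1 with the intestine markers and daf-9 with the dauer endocrine genes given further below. Its summed level mostly follows lea-1 (means 9.76 with perchlorate and 9.74 in controls) and ges-1 (8.12 and 8.52). It is therefore no measure of a dauer state. With perchlorate replicate 1 left out, list medians were -0.14 for neurons, -0.35 for hypodermis, -0.18 for intestine, -0.16 for muscle, 0.02 for sperm and male markers and -0.02 for dauer. No marker was at 0 on any array, as RMA gives no 0, and the part of these shifts in the results on insulin-like peptides was not tested.

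**Figure D5:**
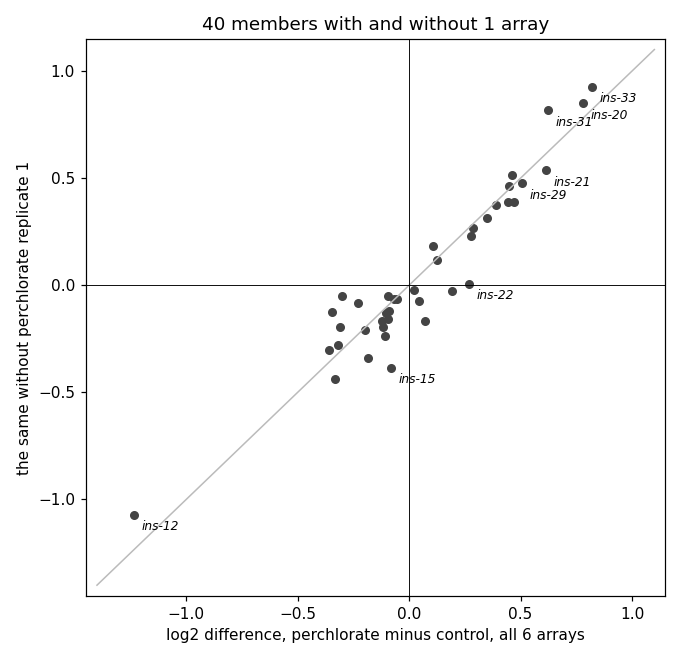
Log2 difference, perchlorate minus control, of the 40 members with all 6 arrays (x axis) and without perchlorate replicate 1 (y axis), 1 point per gene, with the line of equal values in grey. Both axes share 2 perchlorate and 3 control arrays; 36 members keep their sign, and ins-12 is at -1.24 and -1.07.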

How the data were processed

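RNA of 6 samples was amplified into biotin-labelled cDNA and hybridised to Affymetrix arrays, per the labels' protocols. Per the submitters' processing notes, the authors made the deposited log2 values in Affymetrix Expression Console by RMA, which corrects background, normalises quantiles and summarises probes. A genome build and versions are not given in the sources used here, and coordinates are left out. Values were used as deposited.

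Of 29317 probe sets, the 26192 with at least 1 platform gene were fitted in limma 3.58.1 under R 4.3.3 (lmFit, eBayes without trend, two-sided, Benjamini-Hochberg over all, threshold 0.05). The fit had 4 residual degrees of freedom. The number of arrays limits the precision. Groups came from sample titles. The procedure was tested on simulated data.

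Members and lists were chosen with earlier results of these data known. Named were the 12 members with the smallest p, 11 with a known role, the 2 genes with the smallest p in each other list, daf-2 and daf-16. Additional genes named from the lists were chosen after their values were seen. Roles come from general knowledge, and the evidence for those of ins-9, ins-32, ins-35, ins-37 and ins-39 is less direct. Alternatives were a replicate block, each array left out, repeated quantile normalisation, median centring, 2 brightness filters, a trended robust prior, array weights, all probe sets, and gene means. List medians and counts without perchlorate replicate 1 were added after seeing the data.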

Additional observations from a re-analysis of the deposited data

How the results depend on the processing

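The count of insulin-like peptide genes past an adjusted limma p of 0.05 was 0 and became 1, ins-12, when probe sets below the median brightness were left out (limma adjusted p = 0.0471) and when the prior was trended and robust (limma adjusted p = 0.0277), with a log2 difference of -1.24 in both. The cause was not tested. That brightness filter kept 22 members, of which 8 were at an unadjusted p under 0.05. Without it there were 7 among the 22 members at or above the median brightness, and 13 among all 40. On leaving out 1 array the first count stayed at 0 and the second lay between 6 and 10. With the replicate number as a block (replicate block) they were 0 and 10. Deviations of same-numbered arrays correlated at 0.03, -0.02 and -0.01, and 2 of 6 arrays correlated best with their own number. With so few arrays per group, these values cannot settle whether same-numbered samples also share a culture or a batch. Under the remaining alternatives the second count lay between 10 and 13.

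Signs changed in 4 of the 19 insulin-like peptide genes followed, all with differences near 0. For ins-4 (0.02) the difference was -0.022 without perchlorate replicate 1, -0.014 without control replicate 2, -0.029 without control replicate 3 and -0.0051 with array weights, and 0.11 at most, without control replicate 1. For ins-37 (0.04) it was -0.073, -0.025 and -0.0047 without perchlorate replicate 1, without control replicate 3 and with array weights, and 0.19 at most. For ins-6 (-0.12) and ins-18 (-0.10) it was 0.075 and 0.027 without perchlorate replicate 2, and at the lowest -0.23 and -0.18 on leaving out another array. Dim probe sets, with 7 members below the 25th percentile, limit how small a difference could be seen.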

Other observations

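Genes of dauer endocrine signalling outside the insulin pathway lay mostly below 0. Of 12 listed, 11 were measured, 8 were below 0, and the median log2 difference was -0.13, against 0.03 over all probe sets. None passed in limma after adjustment. At an unadjusted p under 0.05, 3 (27.3%) were lower and 0 higher, beside 16.4% of all probe sets, 7.92% lower and 8.46% higher. Without perchlorate replicate 1, 2 were lower at that level, where 14.3% of all probe sets were lower or higher. In that fit 7 were below 0 and the median was -0.15. The largest was daf-5, a Sno/Ski-related factor of the dauer TGF-beta pathway, at 7.28, 6.96 and 7.26 with perchlorate, against 7.99, 7.82 and 7.67 in controls, a difference of -0.66 (SE 0.143, limma adjusted p = 0.148). Its partner SMAD gene daf-3 differed by -0.32 (SE 0.113), and both had groups that did not overlap.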
